A study of Mus musculus with 2 samples.

Results

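Islet cells that held insulin transcripts together with those of another islet hormone were examined in single-cell RNA libraries of mouse pancreatic islets. A cell was counted as a mixed-hormone cell when Ins1 and Ins2 together made up at least 1% of its UMIs and at least one of Gcg, Sst and Ppy also reached 1%. A UMI, or unique molecular identifier, is a tag that counts a captured RNA molecule once. Of 1483 cells, 64 met this rule, 37 of 735 in library 1 and 27 of 748 in library 2. The rule uses measured hormone shares, so the hormone content given here is a description and was not tested. The mixed cells were named by their larger second hormone, which gave 32 insulin+Sst cells, 25 insulin+Ppy cells and 7 insulin+Gcg cells. They were set beside 372 insulin-only, 356 Gcg-only, 58 Sst-only and 122 Ppy-only cells, in which a single hormone reached 1%.

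The islets came from C57BL/6J mice aged 8 weeks, labelled control, with no transgene and no treatment in either library. They were released with collagenase, handpicked and dissociated with trypsin, and RNA was captured by RevGel-seq, in which each cell is tied to a barcoded bead and held in a hydrogel until lysis. The 2 libraries were technical replicates of 1 cell preparation, so every SD over 2 libraries below is technical spread and says nothing of the spread between mice. Library 1 held 15931154 UMIs and library 2 held 17440292, with medians of 17340 and 18922 UMIs per cell, a range of 4704 to 177513, and 0 cell barcodes in common.

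The endocrine cells of the islet are named by the hormone they release. Beta cells release insulin in response to glucose, alpha cells release glucagon, delta cells release somatostatin, which restrains their neighbours, and gamma cells release pancreatic polypeptide. Cells with more than a single hormone are known from the developing islet, and a droplet, well or bead that takes in a pair of cells also gives a profile with both hormones.

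The mixed cells are defined by hormone genes that sit on different chromosomes and are switched on by an overlapping set of homeodomain transcription factors, among them Pdx1 in beta and delta cells. The promoters of Ins1, Gcg, Sst and Ppy are shown for this reason, and that of Ins2 is not shown. They are from RefSeq on GRCm38.p6, given as the 250 bases before the annotated start, 5′ to 3′ on the gene's strand, with the homeodomain core TAAT and its reverse complement ATTA in capitals.
Ins1, chr19:52264047-52264296 (+): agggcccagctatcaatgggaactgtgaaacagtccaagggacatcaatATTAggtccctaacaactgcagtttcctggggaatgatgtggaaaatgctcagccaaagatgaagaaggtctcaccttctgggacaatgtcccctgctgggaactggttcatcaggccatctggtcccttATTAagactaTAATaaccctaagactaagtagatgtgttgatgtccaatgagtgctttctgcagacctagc
Gcg, chr2:62483654-62483903 (-): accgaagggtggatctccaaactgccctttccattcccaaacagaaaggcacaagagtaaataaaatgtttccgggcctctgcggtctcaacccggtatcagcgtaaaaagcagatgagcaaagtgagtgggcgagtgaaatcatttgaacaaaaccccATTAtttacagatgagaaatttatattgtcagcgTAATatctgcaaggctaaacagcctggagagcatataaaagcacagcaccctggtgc
Sst, chr16:23890845-23891094 (-): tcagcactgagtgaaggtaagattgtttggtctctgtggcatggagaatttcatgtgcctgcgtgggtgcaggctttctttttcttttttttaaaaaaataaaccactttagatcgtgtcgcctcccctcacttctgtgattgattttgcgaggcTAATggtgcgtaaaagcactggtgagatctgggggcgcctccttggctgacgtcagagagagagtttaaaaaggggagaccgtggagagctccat
Ppy, chr11:102101320-102101569 (-): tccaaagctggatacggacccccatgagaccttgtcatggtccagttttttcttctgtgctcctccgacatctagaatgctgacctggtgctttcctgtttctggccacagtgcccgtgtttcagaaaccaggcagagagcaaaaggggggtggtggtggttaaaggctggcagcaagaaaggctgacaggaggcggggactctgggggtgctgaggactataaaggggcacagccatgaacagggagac
The core, searched on both strands, occurred 3 times before Ins1, 2 times before Gcg, 1 time before Sst and 0 times before Ppy. It is common, since 54.9% of 32851 promoter entries of the same length held it, and a match marks these letters only. The mRNA of Pdx1 itself was at 337 and 336 CPM in libraries 1 and 2 in insulin-only cells, 154 and 154 in Sst-only cells, and 37.8 and 30.5 in Ppy-only cells. It was at 273 and 278 in insulin+Sst cells and at 163 and 218 in insulin+Ppy cells. CPM is the usual scaling of counts to a common total, and all CPM values here are of the UMIs left after the 5 hormone genes were taken out, summed over the cells of a class in a library.

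Mixed-hormone cells were 5.03% of library 1 (exact binomial 95% interval 3.57 to 6.87%) and 3.61% of library 2 (2.39 to 5.21%), a mean of 4.32% ± 1.01 (SD, n = 2). These intervals cover counting error only. Among cells with insulin they made up 16.9% and 12.4%, or 14.7% ± 3.15 (SD, n = 2). By combination, 22 carried Sst alone beside insulin, 20 carried Ppy alone, 14 carried both Sst and Ppy, 5 carried Gcg alone and 3 carried Gcg with Ppy.

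Insulin was not spread evenly over the carriers of the other hormones. It reached 1% in 13.3% of Sst carriers in library 1 and 13.3% in library 2, 36 of 271 cells in all. It did so in 9.09% and 6.72% of Ppy carriers (37 of 473 cells). Of Gcg carriers, 2.26% and 0.717% passed (8 of 544 cells), although Gcg carriers were the most numerous of the 3 groups.

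To gauge hormone RNA from outside the cell, cells marked as endothelial or leukocyte were used, in which at least 0.5% of UMIs came from 12 endothelial or 20 leukocyte genes. There were 73 such cells in library 1 and 74 in library 2, with median depths of 12440 and 14356 UMIs. Their median insulin share was 0.212% and 0.164%, with a 95th percentile of 4.45% in library 1 and 0.353% in library 2, so some of those in library 1 were above the 1% rule. Of these cells, 1 of 73 and 0 of 74 were mixed-hormone cells, where a count of 0 allows a share of up to 4.86% at the upper end of its exact interval.

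In the 32 insulin+Sst cells insulin was the larger hormone in all but 1. It ran from 1.56% to 41.7% of UMIs, with a median of 25.5%, against medians of 38.7% and 41.5% in the insulin-only cells of the libraries. Sst ran from 1.01% to 7.70%, with a median of 2.80%, against 9.07% and 9.12% in Sst-only cells. Both hormones were thus lower at the median than in the cells that carried each alone. The median insulin share was 0.634 ± 0.027 of the insulin-only median, and the median Sst share was 0.310 ± 0.018 of the Sst-only median (SD, n = 2).

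In the 25 insulin+Ppy cells insulin was the larger hormone in 20. Insulin ran from 2.08% to 38.6% (median 18.8%) and Ppy from 1.05% to 17.5% (median 2.91%). Ppy-only cells had medians of 36.3% and 36.5% Ppy, so Ppy in the mixed cells was 0.0896 ± 0.014 of that share while insulin was 0.423 ± 0.097 of the insulin-only share. The drop was thus much larger for Ppy than for insulin.

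The 7 insulin+Gcg cells had the reverse balance. Gcg was larger than insulin in 6 of them, and insulin was under 2% in 4. The exception had 26.9% insulin beside 4.88% Gcg at a depth of 34398 UMIs. Their mitochondrial share ran from 0.197% to 6.76%, the upper value being the highest in library 1. With 5 and 2 cells in the libraries, they were too few for a gene test.

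**Figure D1:**
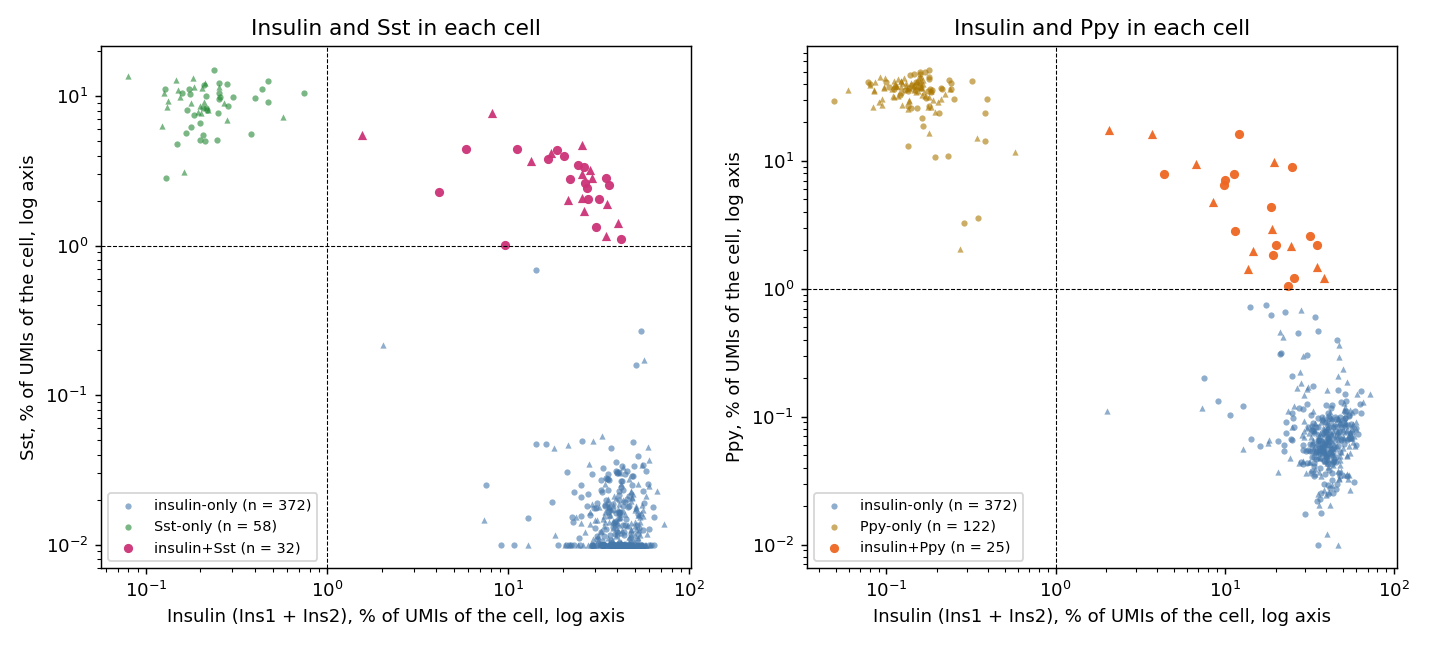
Insulin (Ins1 + Ins2) against Sst and against Ppy as percent of the UMIs of each cell, on log axes, with values under 0.01% drawn at 0.01%. The insulin+Sst and insulin+Ppy cells fill the corner above 1% on both axes. In the Sst panel the mixed cells lie at a median of 25.5% insulin and 2.80% Sst. Insulin+Gcg cells are not drawn.

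The threshold does not lie in a gap. Taking the lower of the insulin share and the largest other hormone share in each cell, 13 cells lay at 1% to under 1.5% and 19 at 0.5% to under 1%. The members nearest the limit inside it held 1.01% Sst, 1.05% Ppy, 1.11% Sst, 1.16% Sst and 1.22% Ppy. The cells nearest it outside held 0.991% insulin, 0.897% insulin, 0.896% insulin, 0.848% Gcg and 0.768% insulin, so 4 of these 5 were cells of another hormone with a little insulin.

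Mixed-hormone cells had higher median depth than insulin-only cells in both libraries at the 1% rule. Their median was 23139 UMIs in library 1 and 20733 in library 2, against 19642 and 17170 in insulin-only cells. The ratio was 1.18 and 1.21 (1.19 ± 0.021, SD, n = 2). With a hormone threshold of 5% it was 1.38 and 0.578, below 1 in library 2. Mixed cells were then only 0.680% of library 1 and 0.401% of library 2, so these medians rest on few cells. An exact permutation test of 2 libraries against 2 cannot go below p = 0.3333 (two-sided), so no depth difference was tested.

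Insulin+Sst cells had medians of 21540 and 23629 UMIs, which was 1.1 and 1.38 times the insulin-only medians. Sst-only cells were shallow, at 13123 and 13692 UMIs, and the mixed cells were 1.64 and 1.73 times as deep (1.68 ± 0.060, SD, n = 2). They held 0.657 and 0.766 of the sum of the 2 single-hormone medians. Their depth was thus above each single class in both libraries and below the sum of both.

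Insulin+Ppy cells had medians of 28338 and 19323 UMIs, 1.44 and 1.13 times the insulin-only medians. Ppy-only cells were the deepest class, at 28784 and 30340 UMIs, and the mixed cells held 0.984 and 0.637 times that (0.811 ± 0.246, SD, n = 2), or 0.585 and 0.407 of the sum of both medians. The libraries differed here by more than for insulin+Sst. Insulin+Gcg cells, at 15190 and 16964 UMIs, were no deeper than insulin-only cells in either library.

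Deep cells, above the 90th percentile of insulin-only cells of the same library, made up 8 of 32 insulin+Sst cells, 5 of 25 insulin+Ppy cells and 0 of 7 insulin+Gcg cells. The same count was 38 of 372 insulin-only cells, 0 of 58 Sst-only cells and 36 of 122 Ppy-only cells. Scrublet, which calls doublets by likeness to simulated pairs, called 16 of 1483 cells (1.08%). It called 5 of the 64 mixed-hormone cells (7.81%), 2 of them insulin+Sst and 3 insulin+Ppy, and 0 of 372 insulin-only cells. Its input included the hormone genes, so these calls are not independent of the rule that chose the cells. Called cells were kept, and each gene count was repeated without them.

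**Figure D2:**
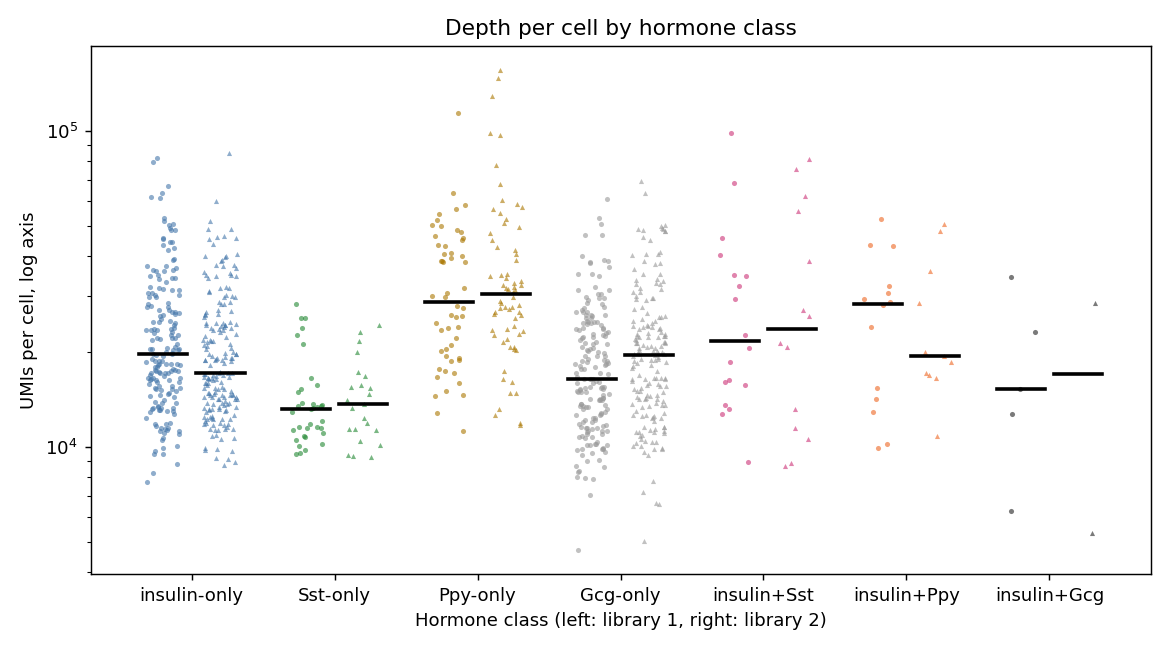
UMIs per cell on a log axis by hormone class, with library 1 at the left and library 2 at the right of each class; each point is a cell and each bar the median of a library. Insulin+Sst medians (21540 and 23629) lie above those of Sst-only cells (13123 and 13692), and insulin+Ppy medians do not lie above those of Ppy-only cells (28784 and 30340).

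The number of genes per cell was compared after each cell was thinned to 4000 UMIs, which no cell fell short of. Insulin-only cells then showed medians of 1562 and 1495 genes, Sst-only cells 2177 and 2163, and insulin+Sst cells 1839 and 1793, in between. Insulin+Ppy cells showed 1776 and 1906, above both insulin-only cells and Ppy-only cells (1627 and 1660). Before thinning the medians were 4256 and 3913 in insulin-only cells, 5380 and 5450 in insulin+Sst cells, 4395 and 4546 in Sst-only cells, 5352 and 4817 in insulin+Ppy cells, and 5724 and 5882 in Ppy-only cells. A hormone share near 40% leaves fewer of the 4000 UMIs for other genes, and this moves with the order of the thinned values.

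Whether a mixed cell carried the rest of both cell types' expression was asked with programme genes, those at least 4-fold higher in a single-hormone class than in each of the other 3. They were chosen in one library, without the hormones, and scored in the other. The beta programme had 100 and 98 genes (70 in both lists), with G6pc2, Ero1lb, Prlr, Glp1r and Mafa among the highest. The delta programme had 166 and 141 genes (82 in both), led by Rbp4, and the alpha programme 45 and 39 (29 in both). The gamma programme had only 14 and 18 genes with 5 in both lists, so gamma scores are unstable. Pyy led the list scored in library 2 and was not in the list scored in library 1. Gamma levels of the 2 libraries thus rest on different genes, and their SD also holds that difference. Levels are given relative to the median cell of the class that defined the programme in the same library.

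Insulin+Sst cells carried both the beta and the delta programme. Their median beta level was 0.498 in library 1 and 0.470 in library 2 (0.484 ± 0.020, SD, n = 2), and their median delta level was 0.445 and 0.3332 (0.389 ± 0.079). Insulin-only cells had a delta level of 0.055 and 0.047, and Sst-only cells a beta level of 0.060 and 0.053. All 32 mixed cells were above the beta limit, the 95th percentile of the single-hormone cells of the other classes, and 30 of 32 were above the delta limit.

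Cell by cell, the 2 levels of insulin+Sst cells ran against each other. Pearson's r between beta and delta level was -0.63 and Spearman's rho -0.60 over 32 cells. The sum of the 2 levels had a median of 0.987, with quartiles of 0.832 and 1.1 and a range of 0.546 to 1.39, and 24 of 32 cells lay between 0.7 and 1.3. The levels also followed the hormones, with r = 0.78 (rho 0.80) between insulin share and beta level and r = 0.69 (rho 0.72) between Sst share and delta level. These values describe cells that share libraries, and levels that are shares of the same UMIs, and carry no p.

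Insulin+Ppy cells carried a weak beta programme, and their levels of the short and unstable gamma programme were low. The median beta level was 0.279 and 0.288 (0.284 ± 0.0063, SD, n = 2), the gamma level 0.055 and 0.149 (0.102 ± 0.067) and the delta level 0.101 and 0.092 (0.0965 ± 0.0059). All 25 were above the beta limit and 3 were above the gamma limit. Those 3 held the most Ppy, 16.3% to 17.5%, with insulin of 2.08% to 12.1% and a median depth of 48112 UMIs, and Scrublet called 2 of them. The other 22 had a median beta level of 0.297 at a median depth of 19624 UMIs, and 20 of them lay under 0.5.

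Of all 64 mixed-hormone cells, 40 (62.5%) were above the beta limit and at least one other limit, against 22 of 372 insulin-only cells (5.91%). Insulin-only cells help set those other limits, so their share is held low by that choice and is not an independent baseline. The 40 comprised 30 insulin+Sst, 8 insulin+Ppy and 2 insulin+Gcg cells. Of the 8 insulin+Ppy cells, 3 were above the gamma limit, 4 above the delta limit and 1 above the alpha limit. Those above the delta limit also held 1.19% to 4.65% Sst, and the cell above the alpha limit also held 1.52% Gcg. In the insulin+Gcg cells the beta level had a median of 0.052 and the alpha level a median of 0.507, and 6 of 7 were above the alpha limit. The 14 Sst-only cells of 58 that also passed the beta limit had low beta levels, since no Sst-only cell exceeded 0.113.

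**Figure D3:**
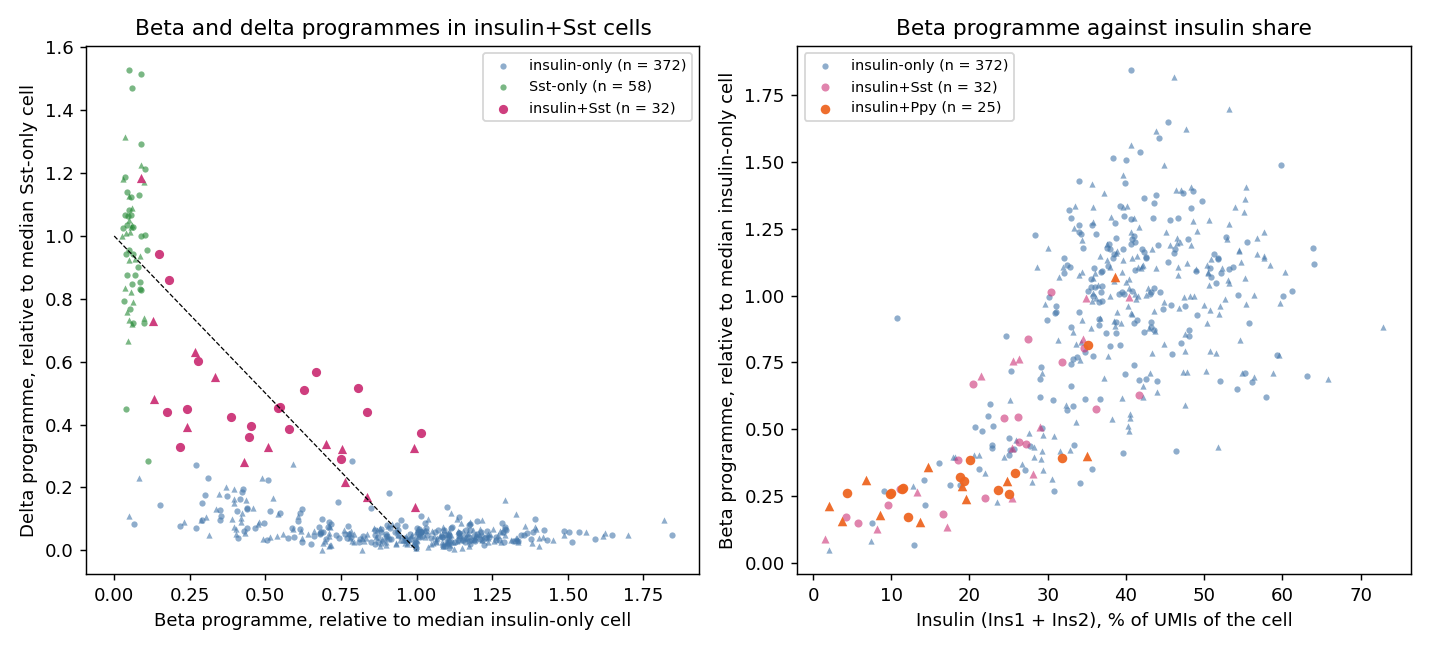
Left, delta against beta programme level per cell, each relative to the median cell of its own class, with the dashed line joining a pure insulin-only and a pure Sst-only cell; right, beta level against insulin share. Insulin+Sst cells scatter along the dashed line (median sum 0.987), and insulin+Ppy cells sit low on the beta axis at the median (0.281), while the cell with the most insulin (38.6%) has the highest beta level of the class (1.07).

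The summed profiles were compared next. When each mixed class was fitted as a non-negative mixture of the 4 single-hormone profiles over programme genes, insulin+Sst was 0.545 and 0.630 of the insulin-only profile (0.587 ± 0.060) and 0.408 and 0.293 of the Sst-only profile (0.350 ± 0.081). The weights summed to 0.970 and 0.951. Insulin+Ppy was 0.291 and 0.273 of the insulin-only profile (0.282 ± 0.013) and 0.489 and 0.209 of the Ppy-only profile (0.349 ± 0.198), with sums of 0.802 and 0.565. The Ppy-only weight differed widely between the libraries and rested in part on the unstable gamma programme, so it cannot be ranked against the Sst-only weight. Pyy was among the genes fitted in library 2 and not in library 1, so the SD of this weight also holds a difference in genes. With these genes the insulin-only weight was the lower one in insulin+Ppy. Its insulin-only weight became 1.09 when genes 2-fold apart were used, a set that adds the abundant beta cell genes Iapp and Chga.

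Single genes were then compared with edgeR's quasi-likelihood test on the sums of raw counts per class and library (11592 genes, 12 sums of 11 to 190 cells, Benjamini-Hochberg adjusted p under 0.05). The hormone genes were outside the counts. Fold changes are log2, mixed class minus the other, with their SE. The median of all genes lay between -0.04 and 0.01 in every comparison.

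Insulin+Sst cells had 330 genes higher than insulin-only cells (2.85% of those tested) and 159 lower (1.37%), and DESeq2 called 475 higher and 120 lower. Delta cell genes were higher and beta cell genes were lower. Of 10 delta genes tested 8 were higher and 0 lower (median 3.15), and of 17 beta genes 0 were higher and 10 lower (median -0.75). With DESeq2 5 beta genes were lower, and with as few single-hormone cells as mixed cells 2 were lower. Against only the insulin-only cells of at most 30% insulin the beta list turned, with 5 higher and 0 lower (median 0.40).

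Hhex, the transcription factor that maintains delta cells, was at 118 and 142 CPM in insulin+Sst cells, 4.43 and 2.11 in insulin-only cells and 316 and 479 in Sst-only cells. Its log2 fold change was 5.17 (SE 0.43, adjusted p = 1.35e-10) against insulin-only and -1.55 (SE 0.29, adjusted p = 0.000512) against Sst-only cells. Rbp4, a retinol carrier abundant in delta cells, stood at 2689 and 1919 CPM, against 228 and 313 in insulin-only cells and 6355 and 6041 in Sst-only cells. Both genes thus lay between the single classes in both libraries, with no overlap of the values.

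The ghrelin receptor Ghsr was at 15.7 and 43.2 CPM and listed at 0 in insulin-only cells. Ptprz1, a receptor phosphatase, was at 121 and 120 CPM against 1.48 and 0.842, the largest rise of this comparison by the naming rule (log2 6.49, SE 0.51). It was followed by Gap43 (6.48), Dpp6 (5.68), Oit1 (5.66) and the epithelial factor Ehf (5.61). Gap43 is a growth cone protein and Dpp6 a partner of potassium channels. Dpp6, Gap43 and Oit1 each overlap another annotated gene, and how reads were assigned there was not tested.

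The beta list ranged down to -1.03 on the log2 scale. Mafa, the factor of mature beta cells that drives insulin transcription, was at 425 and 1015 CPM in insulin+Sst cells, 1162 and 1216 in insulin-only cells and 2.20 and 0 in Sst-only cells (log2 -0.82 against insulin-only, SE 0.18, adjusted p = 0.00417). G6pc2, the islet glucose-6-phosphatase, was at 1157 and 799 against 1896 and 1918 (log2 -1.03, SE 0.16, adjusted p = 4.19e-05). The glucose transporter Slc2a2 was at 443 and 676 against 653 and 739 and did not pass (adjusted p = 0.164). Iapp, the amyloid peptide released with insulin, was at 33822 and 28902 against 48332 and 49627 and just missed the threshold (log2 -0.71, SE 0.21, adjusted p = 0.0506).

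Genes that fell furthest were rare ones. Cit and Acy1 had 0 UMIs in insulin+Sst cells, at least 3.75-fold and at least 2.64-fold lower than in insulin-only cells with a floor of 3 UMIs over both libraries. Nav3 (log2 -3.57) and Emid1 (-3.56) followed, with 1 and 2 UMIs. The calls of Acy1, Nav3 and Emid1 were lost under several alternatives, DESeq2 among them.

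Against Sst-only cells, insulin+Sst cells had 302 genes higher (2.61%) and 168 lower (1.45%), and DESeq2 called 362 and 237. Of 17 beta genes 15 were higher and 0 lower (median 5.17). Of 10 delta genes 0 were higher and 3 lower (median -1.08). Mafa led among the beta genes (log2 9.0, SE 0.60, adjusted p = 2.67e-13), with Sytl4, a granule docking protein (7.34), G6pc2 (6.98) and the urocortin Ucn3 among the named genes. Car10 had 0 UMIs in Sst-only cells and was at least 24.2-fold higher. The largest falls were of moderate size, at -2.14 for Parm1, -2.13 for Clic5, -2.06 for Zc3h11a, -1.96 for Tmem59l and -1.93 for the lipoprotein receptor Lrp1.

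Of 399 genes at least 4-fold apart between insulin-only and Sst-only cells, 351 (88.0%) lay between them in insulin+Sst cells in both libraries, 7 lay above both and 1 below both. Among the lists, 15 of 17 beta genes, 9 of 10 delta genes and 14 of 16 immediate early and heat shock genes lay between. Over all 11592 genes, most of which differ little, 20.2% did. The 399 genes were chosen in these same libraries for their wide gap, which favours a place between.

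Of 16 granule and hormone-processing genes 1 was higher and 2 were lower than in insulin-only cells, with Chgb up (0.76, SE 0.12) and Chga down (-0.64, SE 0.16). Gamma cell genes were also higher in insulin+Sst than in insulin-only cells, 4 of 7 with 0 lower. Pyy, the peptide YY gene that lies beside Ppy on chromosome 11 (chr11:102106676-102107832), was at 7498 and 5356 CPM, against 659 and 546 in insulin-only and 12679 and 13017 in Sst-only cells. Pyy and Ppy are related genes, and how reads were split between them was not tested. Immediate early and heat shock genes, whose mRNA rises with handling and dissociation, were higher for 11 of 16 genes and lower for 0 (median 0.80). Fos was at 1173 and 1250 CPM, against 874 and 691 in insulin-only and 1461 and 1690 in Sst-only cells.

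Insulin+Ppy cells had 246 genes higher than insulin-only cells (2.12%) and 191 lower (1.65%), and DESeq2 called 409 and 159. The beta cell genes fell much further here than in insulin+Sst cells, with 13 of 17 lower and 0 higher (median -1.69). All 7 gamma genes tested were higher (median 2.54), although Sertm1 and Vsig1 rested on 5 and 8 UMIs, most of them in 3 cells. Fxyd6 was at 638 and 687 CPM, above insulin-only cells (399 and 435) and also above Ppy-only cells (136 and 127), so here it did not mark Ppy-only cells. Removing the called doublets left 287 genes in all, with 11 beta genes lower and 6 gamma genes higher.

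Ucn3, a peptide of mature beta cells that acts on delta cells, was at 29.0 and 23.2 CPM in insulin+Ppy cells against 548 and 530 in insulin-only cells (log2 -4.33, SE 0.39, adjusted p = 1.0e-09). Mafa was at 120 and 153 against 1162 and 1216 (-3.13, SE 0.26, adjusted p = 2.10e-10). Slc2a2 was at 120 and 125 against 653 and 739 (-2.49, SE 0.22). In each of these the mixed cells lay far below the insulin-only cells in both libraries. Mafa and Slc2a2 were higher than in Ppy-only cells (log2 6.95 and 6.12), while Ucn3 did not pass against them (1.64, SE 0.78, adjusted p = 0.221).

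The fall was uneven across the list. Sytl4 (-3.39), the channel Trpm5 (-2.63), G6pc2 (-2.58), the zinc transporter Slc30a8 (-1.79) and the incretin receptor Glp1r (-1.69) were among those reduced most. Pdx1 (-0.83, adjusted p = 0.0104) and Nkx6-1 (-0.52, adjusted p = 0.0116), factors that set up beta cells early, were reduced least of those called. The prohormone convertase gene Pcsk1 was at 439 and 613 CPM against 575 and 568 and did not pass (adjusted p = 0.771).

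Iapp and Chga stood apart from the rest. Iapp was at 51797 and 40664 CPM in insulin+Ppy cells, 48332 and 49627 in insulin-only cells and 4190 and 1586 in Ppy-only cells, and did not differ detectably from insulin-only cells (log2 -0.07, SE 0.21, adjusted p = 0.926). Chga, the granule protein chromogranin A, was at 51075 and 47177 CPM, above both insulin-only cells (32708 and 30408) and Ppy-only cells (10007 and 5662). The log2 fold changes of Chga were 0.65 (SE 0.16, adjusted p = 0.0113) and 2.71 (SE 0.17, adjusted p = 5.45e-14). Its relative Chgb was likewise higher than in both, by 1.09 and 1.65. Of 16 granule and hormone-processing genes 5 were higher and 1 lower than in insulin-only cells, and 5 lay above both single classes in both libraries.

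Among gamma genes Pyy was at 9844 and 9806 CPM against 659 and 546 in insulin-only cells and 53889 and 41295 in Ppy-only cells (log2 4.04, SE 0.16, adjusted p = 1.92e-19, and -2.21, SE 0.14). Folr1, a folate receptor, was at 410 and 302 CPM, close to the 384 and 313 of Ppy-only cells and above the 66.4 and 58.5 of insulin-only cells (log2 2.54). The difference from Ppy-only cells was 0.12 with an SE of 0.18. Calb1 (2.45) and Tspan8 (2.36) came next by the naming rule, with the ETS factor Etv1. In insulin+Ppy cells 3 of 25 cells held 42.3% of Pyy and 47.2% of Etv1 UMIs, against 28.1% for Folr1 and 28.2% for Tspan8.

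The genes named as lower had 0 UMIs in insulin+Ppy cells. Nupr1, a stress-response gene, was at least 5.60-fold lower and Sec16b at least 5.41-fold lower than in insulin-only cells. Gm43879, Gm43872 and Gm43889 were at least 5.05-, 4.80- and 4.25-fold lower. These 3 gene models lie inside Cntnap2 on the same strand, so they are not independent of it or of one another. Nupr1 and Gm43889 were not called without the Scrublet doublets.

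Against Ppy-only cells, insulin+Ppy cells had 555 genes higher (4.79%) and 392 lower (3.38%), and DESeq2 called 763 and 334. Beta genes were higher for 15 of 17 and lower for 0 (median 3.76), among them the prolactin receptor Prlr (5.29), Glp1r (4.49) and Papss2, with Sdk2 (4.93) and Cntn1 (4.29) also named. Peg10 had 0 UMIs and was at least 9.64-fold lower, and Oat was at least 4.85-fold, Nid1 at least 3.82-fold and Rprm at least 3.71-fold lower. The hexokinase gene Hk1 was at 0 UMIs against 25.8 and 22.9 CPM. Nid1 and Rprm were not called when the hormone threshold was 2%, and none of these 5 with 0 UMIs was called with equal numbers of cells.

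Of 16 immediate early and heat shock genes 11 were higher in insulin+Ppy than in insulin-only cells (median 0.94), and 15 were lower than in Ppy-only cells (median -1.16). Fos was at 1055 and 1510 CPM, against 874 and 691 and against 4138 and 3917. The heat shock gene Hspb1 was at 152 and 176 CPM, against 19.2 and 20.6 and against 374 and 528. Without the called doublets 7 of 16 were higher than in insulin-only cells. The part of handling in these genes was not tested.

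Of 351 genes 4-fold apart between insulin-only and Ppy-only cells, 236 (67.2%) lay between them in insulin+Ppy cells in both libraries, 16 lay above both, 7 below both, and 92 differed in position between the libraries. In this class 13 of 17 beta genes and 4 of 7 gamma genes lay between. Over all 11592 genes, 12.4% lay between, 10.9% above both and 18.9% below both. The 351 genes were chosen in these same libraries for their wide gap, which favours a place between.

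Set against each other, insulin+Sst cells had 70 genes higher (0.604%) and 64 lower (0.552%) than insulin+Ppy cells, and DESeq2 called 78 and 100. Of 17 beta genes 9 were higher in insulin+Sst cells and 0 lower (median 0.82), led by Ucn3 (log2 3.49, SE 0.46, adjusted p = 1.15e-05) and Mafa (2.31, SE 0.29, adjusted p = 4.30e-06). Chga went the other way (-1.29, SE 0.16, adjusted p = 4.30e-06). Delta genes were higher for 3 of 10, with Rbp4 at 2.33 and Hhex at 2.57.

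Ptprz1 and Gap43 had 0 UMIs in insulin+Ppy cells and were at least 19.7-fold and at least 13.5-fold higher in insulin+Sst cells. Ehf (3.83), the purine receptor P2ry1 (3.73) and arginase, Arg1 (3.54), followed. Lower in insulin+Sst cells were Rgs7bp (-2.10), Tln2 (-1.84), Folr1 (-1.62), Man1a (-1.42) and Sh3pxd2a (-1.42). Tln2, Man1a and Sh3pxd2a were not called at a hormone threshold of 2%.

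**Figure D4:**
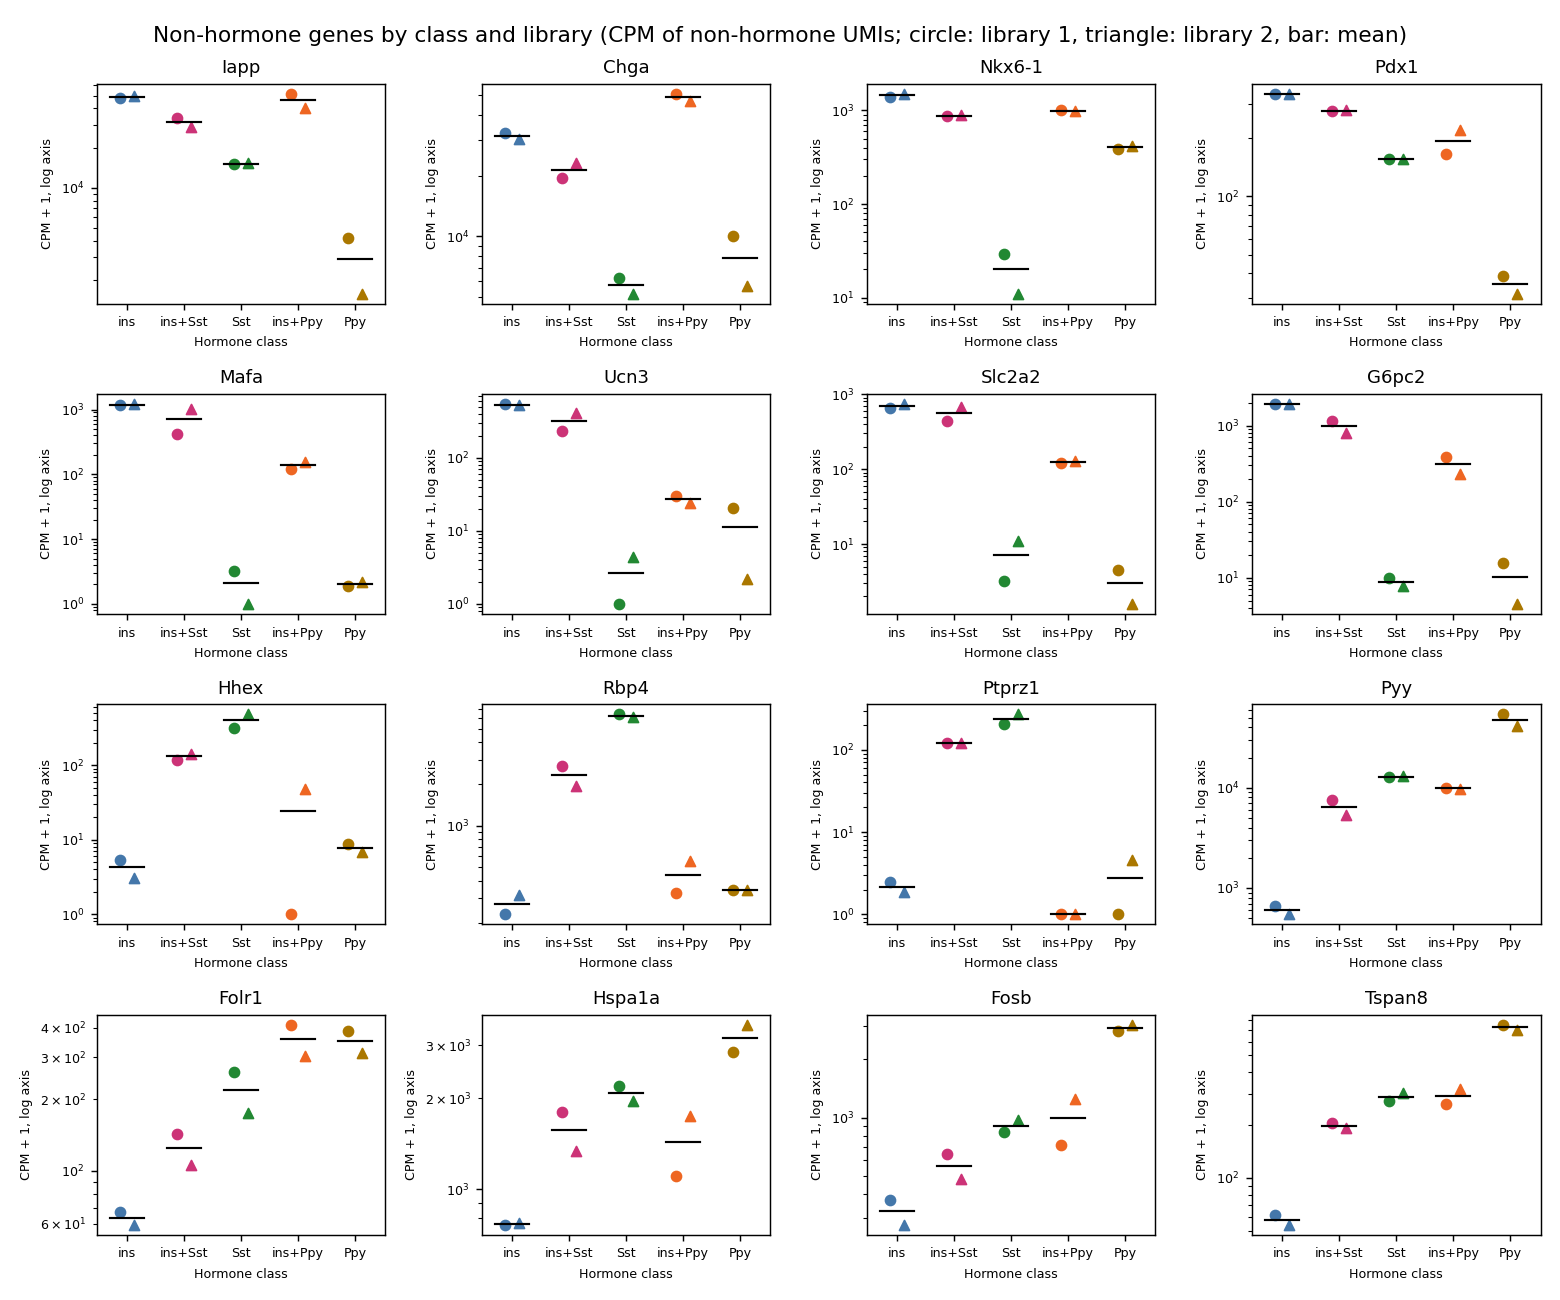
CPM + 1 on log axes for 16 genes in 5 classes, with a circle for library 1, a triangle for library 2 and a bar at their mean. Delta genes such as Hhex and Rbp4 step from insulin-only through insulin+Sst to Sst-only cells, while Mafa and Ucn3 are low in insulin+Ppy cells and Chga is higher there than in any other class drawn.

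Insulin share and beta level were compared within bands of insulin share, since a lower insulin share goes with a lower beta level. At 10 to 20% insulin the median beta level was 0.300 in 10 insulin-only cells and 0.279 in 10 insulin+Ppy and 0.266 in 5 insulin+Sst cells, and at up to 10% it was 0.116 in 4 insulin-only, 0.234 in 6 insulin+Ppy and 0.148 in 5 insulin+Sst cells. At 20 to 30% it was 0.460 in 41 insulin-only, 0.307 in 5 insulin+Ppy and 0.526 in 14 insulin+Sst cells. At 30 to 40% it was 1.01 in 125 insulin-only, 0.608 in 4 insulin+Ppy and 0.821 in 6 insulin+Sst cells. Insulin-only cells of little insulin thus also had a weak beta programme, and 50 of 372 lay under 0.5.

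A comparison with the 55 insulin-only cells of at most 30% insulin was added after the values were seen. Against them insulin+Ppy cells had 51 genes called in all, of 9271 tested. Of 17 beta genes 2 were lower and 0 higher, namely G6pc2 (log2 -1.06, adjusted p = 0.036) and Slc30a8 (-0.97, adjusted p = 0.032), in place of the 13 against all insulin-only cells. The median of the beta list was still -0.47, and the part of the smaller number of cells in the lower count was not tested. Pyy (2.42), Folr1 (1.89) and Tspan8 (1.47) were still called higher, and Chga was at 0.72 with an adjusted p of 0.053. Insulin+Sst cells had 204 genes called, with the beta list turned as given above. The 55 cells held leukocyte RNA, with Cd74 at 277 and 665 CPM, and its part in these values was not tested.

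The 2 insulin genes were not in the same ratio in every class. Ins2 made up 85.5% ± 0.012 (SD, n = 2) of insulin UMIs in insulin-only cells, 85.8% ± 0.21 in insulin+Sst cells and 88.6% ± 0.90 in insulin+Ppy cells. In cells of a second hormone only, where insulin was low, it was 88.2% ± 0.33. Among cells of at most 30% insulin the median per cell was 88.5% in insulin-only, 86.7% in insulin+Sst and 92.1% in insulin+Ppy cells. Insulin+Sst cells matched the ratio of insulin-only cells to within 1 percentage point, and insulin+Ppy cells were above it in both libraries (89.2% and 88.0% against 85.6% and 85.5%). Near-identical stretches of Ins1 and Ins2 may be counted unevenly, and this was not tested.

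Among markers of other cell types, leukocyte genes summed to lower levels in the mixed cells than in insulin-only cells, where few cells held most of them. The 20 leukocyte genes summed to 99.7 and 89.5 CPM in insulin+Sst and 43.5 and 65.0 CPM in insulin+Ppy cells, below the 217 and 345 of insulin-only cells, with 9 and 14 genes at 0 UMIs. Of 7 tested, 1 was called lower in each mixed class. In insulin-only cells, 3 of 372 cells held 23.0% of C1qa UMIs and 77.1 to 98.1% of those of each other tested gene. C1qa was at 76.1 and 67.9 CPM in insulin+Sst and 25.4 and 51.1 in insulin+Ppy cells, against 57.6 and 80.9 in insulin-only cells, and was not called. The 12 endothelial genes summed to 354 and 24.7 CPM in insulin+Sst and 29.0 and 41.8 in insulin+Ppy cells, against 254 and 37.5 in insulin-only cells, so library 1 was the higher one in both insulin+Sst and insulin-only cells. Endothelial levels in insulin+Sst cells were thus not uniformly below those of insulin-only cells. Stromal genes summed to 57.7 and 3.09 CPM in insulin+Sst and 18.1 and 18.6 in insulin+Ppy cells, against 72.3 and 9.69 in insulin-only cells.

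The acinar and duct list rested on Krt7, a keratin, and Cela1. Krt7 was at 333 and 327 CPM in insulin+Sst and 348 and 307 in insulin+Ppy cells, against 330 and 343 in insulin-only cells, and did not pass (adjusted p = 0.803 and 0.979). Cela1, a pancreatic elastase, was at 380 and 253 CPM in insulin+Sst and 120 and 172 in insulin+Ppy cells, against 4.80 and 9.27 in insulin-only, 310 and 151 in Sst-only and 17.2 and 15.8 in Ppy-only cells. The 10 genes of that list other than Cela1 and Krt7 held 16 UMIs over all insulin+Sst cells and 18 over all insulin+Ppy cells, with 5 and 7 of them at 0. Cela1 in insulin+Ppy cells was higher than in insulin-only and Ppy-only cells (log2 4.37, SE 0.39, and 3.18, SE 0.37), but 85.7% of its 70 UMIs there came from 3 of 25 cells, and in insulin+Sst cells 60.4% of 227 UMIs came from 3 of 32. Of 10 genes of immature or dedifferentiated islet cells that were tested, 2 were higher in insulin+Sst and 1 in insulin+Ppy cells than in insulin-only cells, and 0 were lower in either. Fev, a serotonin-cell and endocrine progenitor factor, was called in both at low levels, 23.6 and 15.4 CPM in insulin+Sst and 10.9 and 46.5 in insulin+Ppy cells against 3.69 and 2.11. In Ppy-only cells Fev was at 74.8 and 46.3 CPM. Its calls rested on 14 UMIs in insulin+Sst cells and 13 in insulin+Ppy cells, where 3 cells held 69.2% of them. Sox9, a duct and progenitor factor, rested on 18 UMIs in insulin+Sst cells. Against insulin-only cells of at most 30% insulin these calls were lost, with 0 higher and 3 lower in insulin+Sst cells (Serpina7, Cd81 and Ldha) and 0 called in insulin+Ppy cells.

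The other lists moved little. Of 15 unfolded protein response genes, Atf4, Calr and Dnajb9 were lower in insulin+Sst than in insulin-only cells (log2 -0.73, -0.52 and -0.67), and Atf3 was higher in insulin+Ppy cells (1.89). The chaperone Hspa5 was at 3313 and 2944 CPM in insulin+Sst, 3812 and 3809 in insulin+Ppy and 3819 and 3763 in insulin-only cells, and did not pass in either comparison (adjusted p = 0.0701 and 0.964). Of 10 alpha genes tested Gc was higher than in insulin-only cells in both mixed classes (1.24 in insulin+Sst and 1.62 in insulin+Ppy), and Slc7a2 was lower in both (-0.63 and -1.44), with Ttr lower in insulin+Sst cells (-0.67). Only 2 of 14 cell cycle genes were measured highly enough to test, and 0 were called, with 38 and 20 cell cycle UMIs in all in the mixed classes.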

How the data were processed

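Single-cell RNA of 2 technical libraries of mouse islets was read from the deposited tables of UMI counts per gene and cell. The authors made these raw counts with the Cytonaut software: cell barcodes were called by the knee method of UMI-tools, reads were aligned to exons only on GRCm38, deduplicated by UMI and assigned to genes, and the libraries were not pooled. The aligner is not given in the sources used here. Counting exons only leaves out unspliced RNA. No cell was removed here. The members and lists were chosen with earlier results of these data known.

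Hormone classes used a threshold of 1% of UMIs. Raw counts were summed per class and library without the 5 hormone genes, in classes of at least 10 cells per library, which gave 12 sums. The main tool was edgeR 4.0.16, run under R 4.3.3, with its quasi-likelihood test, TMM scaling and the filterByExpr filter; Benjamini-Hochberg adjustment ran over 11592 genes and 6 residual degrees of freedom were left. DESeq2 1.42.0 was the alternative tool, and it gave adjusted p-values for 7764 to 14988 genes per comparison, so its counts are not out of 11592. The sums held 215276 to 2823605 UMIs. Scrublet ran in scanpy 1.11.5 (Python 3.11.15), and the scripts were tested on simulated data. Named genes were, for each comparison, the 5 called genes with the largest change in each direction with at least 50 UMIs in the higher class, the same direction in both libraries and under 50% of those UMIs in 3 cells; genes of the lists were also named. Results for some genes that this rule named are not reported here. Where a gene had 0 UMIs, the fold is against a floor of 3 UMIs over both libraries.

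The alternatives were hormone thresholds of 0.5%, 2% and 5%, removal of called doublets, thinning to 4000 UMIs, other programme limits and folds, RLE size factors, DESeq2, no filter, a library block, equal numbers of cells, and each library left out. A further 2 were chosen after seeing the data: Sst cells with or without Ppy as the Sst class, and insulin-only cells of at most 30% insulin.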

Additional observations from a re-analysis of the deposited data

How the results depend on the processing

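The share of mixed-hormone cells was 5.61% at a threshold of 0.5%, 3.04% at 2% and 0.541% at 5%, and 3.61 to 5.03% over single libraries. Their depth relative to insulin-only cells was 1.45 without hormone UMIs, 1.29 at 2%, 0.980 at 5%, 1.25 by means and 1.16 without called doublets (1.18 to 1.21 over single libraries). Insulin+Sst relative to Sst-only depth was 1.35 without hormone UMIs, 2.19 by means and 1.79 without called doublets (1.64 to 1.73), and had no value at 5%. Insulin+Ppy relative to Ppy-only depth ran from 0.637 to 0.984 over single libraries. The mean over libraries of the share of members above 2 programme limits, 63.6%, became 49.7% at the 99th percentile, 80.8% with 2-fold and 74.9% with 8-fold genes, 47.4% after thinning and 26.7% at 5% (56.8 to 70.4% over single libraries). The values at 5% rest on few cells, since members were then 0.680% of library 1 and 0.401% of library 2. On log2 CPM the insulin+Sst weights were 0.656 and 0.510. The insulin-only weight of insulin+Ppy was 1.09 with 2-fold genes, 0.245 with 8-fold genes and 0.534 on log2 CPM. Single libraries gave weights of 0.545 to 0.630 and 0.293 to 0.408 for insulin+Sst and of 0.273 to 0.291 and 0.209 to 0.489 for insulin+Ppy.

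With equal numbers of cells the counts of genes called were 102 for insulin+Sst against insulin-only, 168 against Sst-only, 112 for insulin+Ppy against insulin-only, 347 against Ppy-only and 44 between the mixed classes, where fewer cells and UMIs entered the sums. Without called doublets they were 287 for insulin+Ppy against insulin-only and 89 between the mixed classes, and at a threshold of 2% the last was 60. With insulin-only cells of at most 30% insulin they were 204, 51 and 79 for insulin+Sst and insulin+Ppy against insulin-only and between the mixed classes; the cause was not tested. Without a filter on low counts the calls were 313 higher and 359 lower for insulin+Sst against insulin-only, 215 and 374 for insulin+Ppy against insulin-only, and 439 and 488 against Ppy-only. Of the 102 values under alternatives, 70 moved by less than the spread between the libraries, which was wide for the Ppy-only weight, or, for counts, by at most 1.5 times. A value with a library left out lies within that spread by construction. Those values are among the 70 and say nothing of how stable the results are. At a threshold of 5% the mean depth ratio to insulin-only cells fell below 1, with 1.38 in library 1 and 0.578 in library 2, on the few cells left. With insulin-only cells of at most 30% insulin, the beta list of insulin+Sst turned to 5 higher and 0 lower and the immature list to 0 higher and 3 lower. With the replicate block, which takes library number as a term, the counts were 480, 468, 438, 924 and 139; deviations of same-numbered sums correlated at -0.06 to 0.12 (1 of 15 pairs of classes over 0.1), so the numbers do not pair the sums beyond the library they share. Leaving out a library leaves no residual degrees of freedom, so the gene tests were not repeated. The 2 libraries of 1 preparation and the 25 to 32 cells per mixed class limit the precision.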
